A study of Mus musculus with 18 samples.

Results

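Intraflagellar transport and BBSome genes were examined in the testes of young repro9/repro9 and wild-type males aged 14 or 17 days postpartum (dpp). The repro9 mutation lies in Mybl1, the gene for the meiotic transcription factor A-MYB, and the mutant germ cells arrest in meiotic prophase. Members were all genes whose annotated symbol is Ift or Bbs followed by a number, together with 15 listed genes of the same machinery that carry other symbols. Each gene was represented by its brightest probe set annotated to that gene alone, with brightness taken as the mean log2 signal over all 18 arrays. This gave 37 members of 18193 genes with such a probe set, namely 14 Ift genes, 8 Bbs genes and the 15 listed genes. The rule did not use the differences between groups.

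Intraflagellar transport (IFT) is the movement of protein trains along the microtubules of a cilium or flagellum. Trains are built of the IFT-B and IFT-A complexes, travel outward on heterotrimeric kinesin-II and return on cytoplasmic dynein-2. The BBSome is a coat-like complex that rides on the trains and links membrane proteins to them, and chaperonin-like BBS proteins help to assemble it. In the testis the machinery is needed to build the sperm flagellum, which grows in spermatids after meiosis, while many somatic cells use it for primary cilia. By role the members were 6 IFT-A subunits, 17 IFT-B subunits, 7 BBSome subunits, 2 BBS chaperonin-like proteins, 3 kinesin-II subunits and 2 dynein-2 subunits.

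The 18 samples were Affymetrix mouse 430 2.0 arrays of total RNA from homogenised testes. The groups were 5 repro9/repro9 and 3 wild-type samples at 14 dpp, and 5 of each genotype at 17 dpp. The strain and the mice behind each array are not named in the sources used here. The replicates are thus not shown to be separate animals, and the p-values then measure only the spread between these samples. The submitters took 14 dpp for testes rich in early to mid-pachytene cells, and 17 dpp for those rich in late pachytene and diplotene cells. All 37 members passed the filter on low signal (above the 40th percentile of the array on at least 3 arrays), and 32 lay above it on all 18 arrays. The exceptions were Ttc30a2, which did so on 12 arrays, Bbs2 on 17, and Bbs9, Ift172 and Kif3b on 16 each.

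The arrays fell into 3 sets by the ratio of 3′ to 5′ signal of the β-actin control probes, a measure of RNA integrity and labelling length, and the labels do not name these sets. Set 1 held 7 arrays with ratios of 2.31 to 2.92, set 2 held 4 arrays of 14 dpp with ratios of 1.45 to 1.49, and set 3 held 7 arrays of 17 dpp with ratios of 103 to 125. At 17 dpp, replicates 1 and 2 of the mutants and replicate 1 of the wild type were in set 1 and all others in set 3. At 14 dpp, mutant replicates 1 and 2 and wild-type replicates 1 and 2 were in set 1 and the rest in set 2. Genotype is therefore spread over sets at each age, whereas set 1 alone holds both ages. Mybl1 itself had geometric mean signals of 167 in mutants and 1831 in wild type at 17 dpp. Since repro9 is a point mutation, its transcript level is no check of the labels.

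Promoter sequence was compared because RFX transcription factors, which control many cilium genes, bind a motif called the X-box. RefSeq promoter windows (GRCm38.p6, 250 bases before to 50 after the annotated start) were found for 32 of the 37 members, and those of Dync2li1, Ift122, Ift80, Ift81 and Ttc30b were missing. The motif searched was GTTNCC, then 0 to 3 bases, then GGNAAC, on both strands. An exact match stood in 4 member promoters, those of Ttc30a2, Ttc26, Ift57 and Bbs7. These 4 are among the 12 members with a window that were called lower in mutants at 17 dpp, and the other 20 windows held 0 exact matches. An exact match stood in 0.804% of all 32851 windows given. With up to 1 mismatch the motif stood in 8 of the 32 member windows and in 5.44% of all windows. These 8 were 4 of the 12 called members and 4 of the other 20. Most of those 20 were called lower too in the fit below with the array set as a block. Whether the motif goes with the genotype difference was not tested. The MYB motif AACTG, on either strand, stood in 13 member windows (40.6%) and in 44.8% of all windows. These matches are a description of the sequence and say nothing about binding.

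The 125 bases before the annotated start of the 4 members with an exact match are printed 5′ to 3′ on the gene's strand, with the X-box in capitals, and those of Ttc30a1, the neighbour of Ttc30a2, stand beside them. The first capital lies 24 bases before the start in Ttc30a2 (chr2:75978180-75978304, minus strand), 33 in Ttc26 (chr6:38381399-38381523, plus strand), 60 in Ift57 (chr16:49699169-49699293, plus strand) and 121 in Bbs7 (chr3:36613390-36613514, minus strand). The window of Ttc30a1 (stretch chr2:75981968-75982092, minus strand) held no match with up to 1 mismatch.
Ttc30a2: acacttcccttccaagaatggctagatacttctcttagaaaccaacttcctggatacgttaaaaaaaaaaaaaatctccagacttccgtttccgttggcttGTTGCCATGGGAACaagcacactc
Ttc26: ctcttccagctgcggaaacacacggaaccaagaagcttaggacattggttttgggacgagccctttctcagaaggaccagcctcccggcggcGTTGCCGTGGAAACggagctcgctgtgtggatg
Ift57: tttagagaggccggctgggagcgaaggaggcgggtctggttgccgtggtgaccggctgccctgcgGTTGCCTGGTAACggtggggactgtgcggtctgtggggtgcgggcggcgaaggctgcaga
Bbs7: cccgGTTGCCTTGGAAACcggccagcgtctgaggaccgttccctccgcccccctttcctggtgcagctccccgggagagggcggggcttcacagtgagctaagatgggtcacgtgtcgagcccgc
Ttc30a1: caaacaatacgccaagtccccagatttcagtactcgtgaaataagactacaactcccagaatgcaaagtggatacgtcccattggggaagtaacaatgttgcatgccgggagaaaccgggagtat

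At 17 dpp the machinery was lower in mutant testes as a group. Of the 37 members, 14 were called lower and 0 higher by limma (Benjamini-Hochberg adjusted p under 0.05 over all 34764 tested probe sets), where 3.86% of all probe sets were called lower and 1.48% higher. At an unadjusted p under 0.05 there were 21 members lower and 1 higher, where 7.32% of all probe sets were lower and 12% higher. The log2 difference, mutant minus wild type, was negative for 35 members, and its median was −1.07 against 0.25 over all probe sets, of which 35.7% were negative. With the arrays moved to a common median, the median of all probe sets became 0.04 and that of the members −1.29. The calls comprised 3 of 6 IFT-A, 7 of 17 IFT-B, 2 of 7 BBSome, 0 of 2 chaperonin-like, 2 of 3 kinesin-II and 0 of 2 dynein-2 genes. In this bulk tissue, fewer cells of a type and less RNA per cell cannot be told apart.

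With the array set as a block, 31 of the 37 members were called lower and 0 higher at 17 dpp, where 8.05% of all probe sets were called lower and 10.8% higher. Within set 3 (3 mutant and 4 wild-type arrays) 25 members were called lower, against 6.07% of all probe sets. In set 1, where 1 wild-type array stands against 2 mutant arrays, 8 were, against 2.6%. The member median was −1.10 with the block, −1.23 within set 3 and −1.01 within set 1. With only the arrays of 17 dpp in the fit, 7 members were called lower. The share of all probe sets called in that smaller fit is not given here, so this count has no background beside it. The 31 genes of the block fit comprised 5 IFT-A, 15 IFT-B, 5 BBSome, 1 chaperonin-like, 3 kinesin-II and 2 dynein-2 genes.

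The genes of the Ttc30 cluster encode IFT-B subunits of the IFT70 type, tetratricopeptide proteins that sit on the IFT-B core. Ttc30b, Ttc30a2 and Ttc30a1 follow each other on chromosome 2 with no other protein-coding gene between them. They are close paralogues, so that a probe set annotated to 1 of them may also bind another, and the probe set of Ttc30a2 is of the class that Affymetrix marks as prone to this. Signals are given below in the order of the replicate numbers.

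Ttc30a2 had signals of 5821, 6306, 5198, 3651 and 12903 in wild type at 17 dpp. In mutants of that age it had 70.6, 92.0, 70.8, 152 and 136. Every mutant array lay far below every wild-type array, and the mutant signals were near the 40th percentile of the arrays, which ran from 49.2 to 93.4. The log2 difference was −5.96 ± 0.37 (SE, adjusted p = 1.31e-08, limma), a 62.4-fold lower signal. At 14 dpp the wild-type signals were 418, 803 and 209 and the mutant signals 66.1, 48.3, 58.7, 47.6 and 54.1. The groups were again separate, and the difference was −2.92 ± 0.43 (adjusted p = 0.00334, limma). All 5 mutant signals of 14 dpp lay below the 40th percentile of their own arrays, so that this value is imprecise and only a bound can be given. With the mutant signals raised to that percentile the wild type was at least 5.15-fold brighter (−2.37, adjusted p = 0.0182, limma), and the same step left the 17 dpp difference at −5.91, with 1 mutant array below the percentile. Its other probe set gave −6.05 at 17 dpp and −3.23 at 14 dpp.

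Ttc30a1 had signals of 1868, 5237, 5778, 4553 and 6850.2 in wild type and 285, 383, 771, 669 and 848 in mutants at 17 dpp. The groups did not overlap, and in both the arrays of set 3 were the brighter ones. The difference was −3.03 ± 0.36 (adjusted p = 1.78e-05, limma), a 8.19-fold lower signal. At 14 dpp the signals were 679, 1039 and 653 in wild type and 538, 408, 341, 311 and 311 in mutants, without overlap. The difference of −1.05 ± 0.41 did not pass (adjusted p = 1), whereas with the array set as a block it was −0.92 ± 0.19 (adjusted p = 0.0471, limma).

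Ttc30b, the third gene of the cluster, had 312 to 666 in wild type and 247 to 535 in mutants at 17 dpp. These ranges overlapped, and its difference of −0.48 ± 0.30 was not called (adjusted p = 0.403). It was not called with the array set as a block either (−0.36, adjusted p = 0.263). Whether the 3 genes differ from each other in the size of the genotype difference was not tested.

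**Figure D1:**
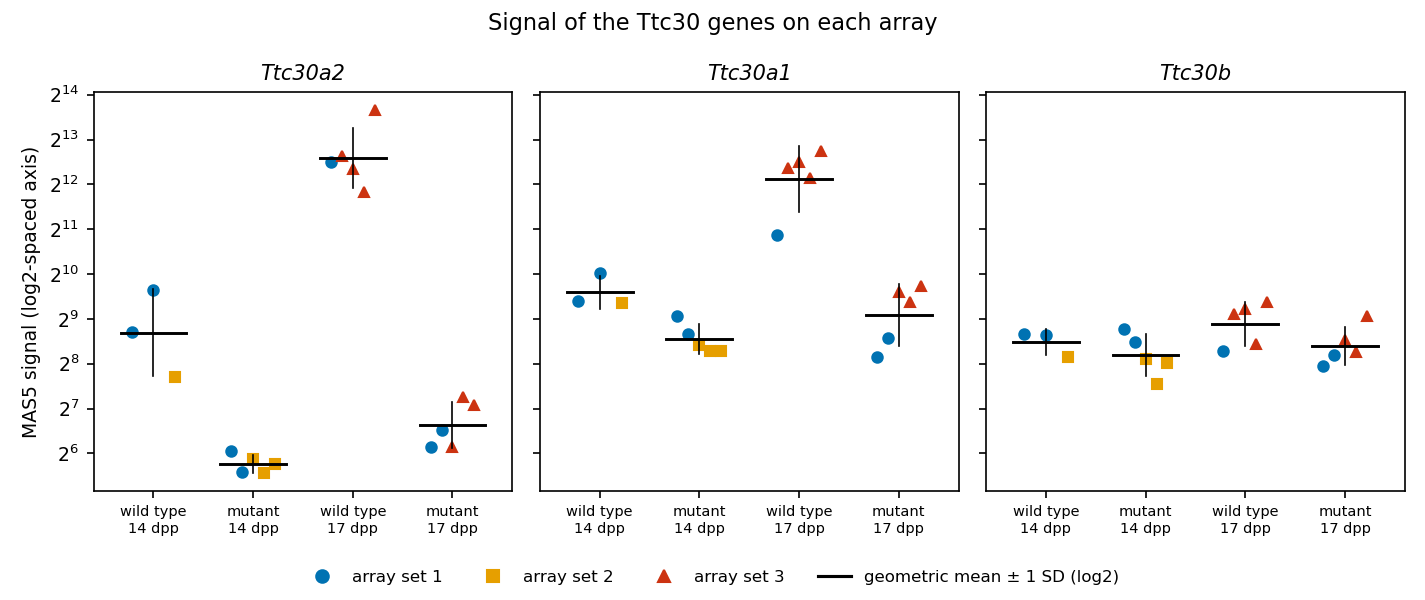
MAS5 signal of Ttc30a2, Ttc30a1 and Ttc30b on each array, on a log2-spaced axis, by group; symbols mark the array set, and bars give the geometric mean with 1 SD of the log2 values. For Ttc30a2 and Ttc30a1 every mutant array lies below every wild-type array at both ages, whereas the groups of Ttc30b overlap at 17 dpp.

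Among the other IFT-B subunits, Ift80, Ttc26, Ift57, Ift74 and Cluap1 were called lower at 17 dpp. Ift80, Ift57 and Cluap1 (IFT38) belong to the peripheral part of IFT-B, and Ttc26 (IFT56) and Ift74 to its core. Ift80 had signals of 2079, 2223, 2825, 1831 and 3057 in wild type and 752, 664, 516, 537 and 663 in mutants at 17 dpp. At 14 dpp they were 1016, 1296 and 818 in wild type and 799, 761, 671, 446 and 474 in mutants. Neither age showed overlap. The difference was −1.93 ± 0.23 at 17 dpp (adjusted p = 2.24e-05, limma) and −0.74 ± 0.27, not called, at 14 dpp (adjusted p = 1). A second probe set of Ift80, with a lower mean over all arrays, gave −0.52 ± 0.22 at 17 dpp and was not called. Its geometric mean signals at 17 dpp were 646 in mutants and 927 in wild type. Those of the chosen probe set were 620 and 2359, so the choice leaned on its signal in wild type.

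Ttc26 had signals of 1433, 2609, 2676, 1549 and 2944 in wild type and 618, 636, 642, 463 and 913 in mutants at 17 dpp. Its 14 dpp signals were 519, 764 and 766 in wild type and 599, 539.9, 500.0, 411 and 449 in mutants. The groups were separate at 17 dpp and overlapped at 14 dpp. The difference at 17 dpp was −1.75 ± 0.25 (adjusted p = 0.000169, limma).

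Ift57 had signals of 1487, 3908, 3876, 2349.9 and 4960.2 in wild type and 737, 737, 1420.1, 1437 and 2299 in mutants at 17 dpp. At the younger age it had 525, 723 and 1132 and 851, 804, 935, 835 and 917. The groups overlapped at both ages, and at 17 dpp the wild-type array of set 1 lay below mutant replicate 5, an array of set 3. The difference of −1.34 ± 0.35 at 17 dpp (adjusted p = 0.0299, limma) was not called when mutant replicate 1 or 2 or wild-type replicate 2, 3 or 5 was left out (−1.25 to −1.16, adjusted p of 0.0795 to 0.103). It was also lost after quantile normalization (−1.24, adjusted p = 0.0932) and with the mean of its probe sets (−0.71, adjusted p = 0.401). Ift74, the member with the highest mean signal among the IFT-B probe sets, had 4813, 7841, 8204, 6721 and 11569 in wild type and 2671, 2146, 3605, 4471 and 4224 in mutants at 17 dpp. Its 14 dpp signals were 2219, 2719 and 2482 and 2137, 2228, 2133, 2041 and 1918, which overlapped, whereas those at 17 dpp did not. The difference at 17 dpp was −1.19 ± 0.23 (adjusted p = 0.00355, limma).

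Cluap1 had signals of 1677, 2223, 2023, 1315 and 2193 in wild type and 1176, 1033, 682, 573 and 1312 in mutants at 17 dpp. At the younger age it had 1108, 1308 and 979.9 and 912, 839, 834, 842 and 738. The lowest wild-type array lay just above the highest mutant array at 17 dpp, and the groups were separate at 14 dpp too. The difference at 17 dpp was −1.03 ± 0.24 (adjusted p = 0.0141, limma), and within set 1 it was −0.61 and not called.

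The remaining 10 IFT-B members, Ift20, Ift22, Ift27, Ift46, Ift52, Ift81, Ift88, Ift172, Traf3ip1 and Ttc30b, were not called in the fit without the block. All had negative differences at 17 dpp, from −0.16 (Ift20) to −1.64 (Ift172). Ift27, a small GTPase of the IFT-B core that links trains to the BBSome, lay just outside the threshold (−1.37 ± 0.40, adjusted p = 0.0504). With the array set as a block it was called at −1.69 ± 0.16 (adjusted p = 8.77e-07, limma). Of these 10 genes only Ift52 and Ttc30b were not called with the block. The block takes the shift between sets to be the same in both genotypes. For Ift22, set 3 minus set 1 at 17 dpp was −2.01 in mutants and −3.97 in wild type. Its genotype difference was −0.81 with the block (adjusted p = 0.047, limma). It was −2.22 within set 1, with 1 wild-type array, and −0.26 within set 3, not called. Ift172, a peripheral IFT-B subunit, was the member that differed most between array sets. Its signal was 2858 on the wild-type array of set 1 and 158 to 201 on those of set 3, and 437 to 491 and 8.93 to 67.9 on the mutant arrays of these sets. Its genotype difference was −1.64 ± 0.91 without the block (adjusted p = 0.34) and −2.41 ± 0.40 with it (adjusted p = 0.000383, limma). Of the 3 mutant signals of set 3, 2 lay below the 40th percentile of their arrays, and with such signals raised to it the value with the block was −1.54 (adjusted p = 5.4e-05, limma).

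IFT-A is the complex needed for return transport and for the entry of membrane proteins. Ttc21b (IFT139) had signals of 4309, 3956, 3747, 2199.9 and 4647 in wild type and 1127, 824, 543, 767 and 809 in mutants at 17 dpp. At 14 dpp the signals were 1964, 2208 and 1448 and 994, 1091, 746, 837 and 669. Every mutant array lay below every wild-type array at both ages. The difference was −2.21 ± 0.25 at 17 dpp (adjusted p = 9.47e-06, limma), a 4.61-fold lower signal. At 14 dpp it was −1.11 ± 0.28 and not called (adjusted p = 0.275, and 0.0675 with the block). Its weaker second probe set gave −0.45 at 17 dpp and was not called.

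Wdr35 (IFT121) had signals of 4055, 2131, 1946, 1366 and 2245 in wild type and 1454, 1265, 386, 304 and 621 in mutants at 17 dpp. At the younger age it had 1463, 1995 and 1243 and 1105, 999.8, 705, 678 and 598. Both groups were dimmer on set 3 arrays at 17 dpp, and wild-type replicate 4 lay below the brightest mutant array, which was of set 1. The difference at 17 dpp was −1.72 ± 0.40 (adjusted p = 0.013, limma), and a second, dimmer probe set gave −2.19 (adjusted p = 0.0338, limma). Its geometric mean in mutants at 17 dpp was 57.8, where the 40th percentiles of all arrays ran from 49.2 to 93.4, so this value is imprecise. At 14 dpp the second probe set gave 0.04, against −0.95 for the brightest. Ift122, the brightest IFT-A probe set, had 4369.5, 4290.5, 6487, 9344 and 7131 in wild type and 932, 1797, 2647, 5131 and 1655 in mutants at 17 dpp. Its 14 dpp signals were 1050.3, 1342 and 1228 and 1005, 1035, 1182, 974 and 898. The groups overlapped at 17 dpp only through mutant replicate 4, and the difference was −1.55 ± 0.34 (adjusted p = 0.0088, limma). A weaker second probe set of Ift122 gave −0.06, and the mean of the pair −0.81, which was not called (adjusted p = 0.243).

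Of the other IFT-A genes, Ift140 had a difference of −1.31 ± 0.41 (adjusted p = 0.0773) and Ift43 of −0.75 ± 0.48 (adjusted p = 0.421). Both were called with the block, at −1.64 (adjusted p = 1.98e-05, limma) and −1.10 (adjusted p = 0.0136, limma). Wdr19 (IFT144) stood at −0.05 ± 0.29 without the block and −0.24 ± 0.16 with it, and was called in neither fit.

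BBSome genes were led by Bbs7, a β-propeller subunit and the brightest BBSome probe set. It had signals of 1695, 3198, 3049, 1838 and 3728 in wild type and 581, 499, 549.7, 425 and 909 in mutants at 17 dpp. The 14 dpp signals were 480.4, 716 and 844 and 489, 382, 593, 436 and 489. No mutant array reached a wild-type array at 17 dpp, while at 14 dpp the groups overlapped. The difference at 17 dpp was −2.17 ± 0.27 (adjusted p = 3.47e-05, limma), a 4.50-fold lower signal. Ttc8 (BBS8), a tetratricopeptide subunit, had 1064, 1434, 1374, 1179 and 1463 in wild type and 547, 548, 649.5, 473 and 808 in mutants at 17 dpp. At the younger age it had 677, 717 and 580.4 and 646, 531, 467, 426 and 505. It was separate at 17 dpp, with a difference of −1.12 ± 0.20 (adjusted p = 0.00174, limma).

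The other BBSome subunits were Bbs1, Bbs2, Bbs4, Bbs5 and Bbs9, none of them called without the block. Bbs1, Bbs2 and Bbs5 had differences of −0.81, −1.17 and −1.07, and each was called lower with the block. For Bbs2, 1 mutant signal of 17 dpp (14.4) lay below the 40th percentile of its array. With such signals raised to it, Bbs2 stood at −0.64 without the block. With the block it went from −1.72 to −1.08 (adjusted p = 0.016, limma), and within set 1 it was −0.59. Bbs4 stood at −0.25 ± 0.26 and was called in neither fit. Bbs9 stood at 0.63 ± 0.68 without the block, 0.06 ± 0.31 with it, and −0.50 within set 1, so that its sign depends on how the sets are treated. Its signal ran from 39.3 to 153 on the arrays of set 3 and from 375 to 772 on all others. Of the chaperonin-like genes, Bbs10 had 410.3, 354, 401, 405 and 481 in wild type and 186, 207, 296, 313 and 250.2 in mutants at 17 dpp. Its 14 dpp signals were 182, 233 and 325 and 220.4, 187, 218, 245 and 237. The 17 dpp groups were separate, but the difference of −0.73 ± 0.24 was not called (adjusted p = 0.0824). With the block it was −0.67 ± 0.19 (adjusted p = 0.0193, limma). Bbs12 stood on the other side of 0, at 0.56 ± 0.26, and missed the threshold (adjusted p = 0.253, and 0.161 with the block).

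Kinesin-II drives outward transport, with Kif3a and Kif3b as its motor subunits and Kifap3 as the accessory subunit, and it also serves transport outside cilia. Kif3b had signals of 677, 556, 674, 598 and 738 in wild type and 263, 371, 78.5, 82.3 and 456 in mutants at 17 dpp. At 14 dpp they were 346, 245 and 717 and 324, 216, 466, 529 and 337. The 17 dpp groups were separate and the difference was −1.72 ± 0.46 (adjusted p = 0.0336, limma). Mutant replicates 3 and 4 lay below the 40th percentile of their arrays. With such signals raised to it, the difference was −1.68 (adjusted p = 0.0303, limma). The other 3 probe sets of Kif3b gave values from −0.0023 to 0.83 at 17 dpp and were not called, so that the difference rests on 1 probe set of 4. Against 1 of these 3, the chosen probe set was brighter only in wild type at 17 dpp (geometric means of 645 against 215). The choice of the brightest thus leaned on the group where it was high. The call was lost when mutant replicate 3 or 4 or wild-type replicate 2, 3 or 5 was left out (−1.78 to −1.39, adjusted p of 0.0575 to 0.0878).

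Kifap3 had 1733, 3325, 3189, 2062 and 3003 in wild type and 1344, 1447, 1079, 658 and 1918 in mutants at 17 dpp. At the younger age it had 1379.6, 1364 and 1082 and 1188, 1282, 999, 945 and 853. Overlap at 17 dpp came from mutant replicate 5 and wild-type replicate 1, and the difference was −1.09 ± 0.27 (adjusted p = 0.0208, limma). Within set 1 it was −0.31, not called, and within set 3 −1.36. It was also lost when mutant replicate 3 or wild-type replicate 2, 3 or 5 was left out (−1.04 to −0.99, adjusted p of 0.0504 to 0.0665). Kif3a, the brightest probe set of this role, had 2424, 2360.3, 2001, 1403 and 2464 in wild type and 2099, 1758, 1096, 1162 and 1865 in mutants at 17 dpp. Its signals at 14 dpp were 2039, 1941 and 1769 and 1770.1, 1669, 1890.4, 1452 and 1844. The groups overlapped and the difference of −0.43 ± 0.22 was not called (adjusted p = 0.287), while with the block it was −0.52 ± 0.18 (adjusted p = 0.0474, limma).

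Dynein-2 carries trains back to the cell body. Its heavy chain gene Dync2h1 had signals of 2889.6, 1405, 1052, 434 and 837 in wild type and 1159.8, 968, 304, 198 and 397 in mutants at 17 dpp. At 14 dpp they were 1062, 1473 and 1623 and 1075, 1053, 1099.9, 983 and 947. Arrays of set 3 were the dimmer ones in both genotypes at 17 dpp, and the groups overlapped across sets but not within them. The difference was −1.17 ± 0.47 without the block (adjusted p = 0.176) and −1.54 ± 0.26 with it (adjusted p = 0.000428, limma). The light intermediate chain gene Dync2li1 had −0.77 ± 0.56 without the block and was called with it at −1.22 ± 0.29 (adjusted p = 0.00656, limma).

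**Figure D2:**
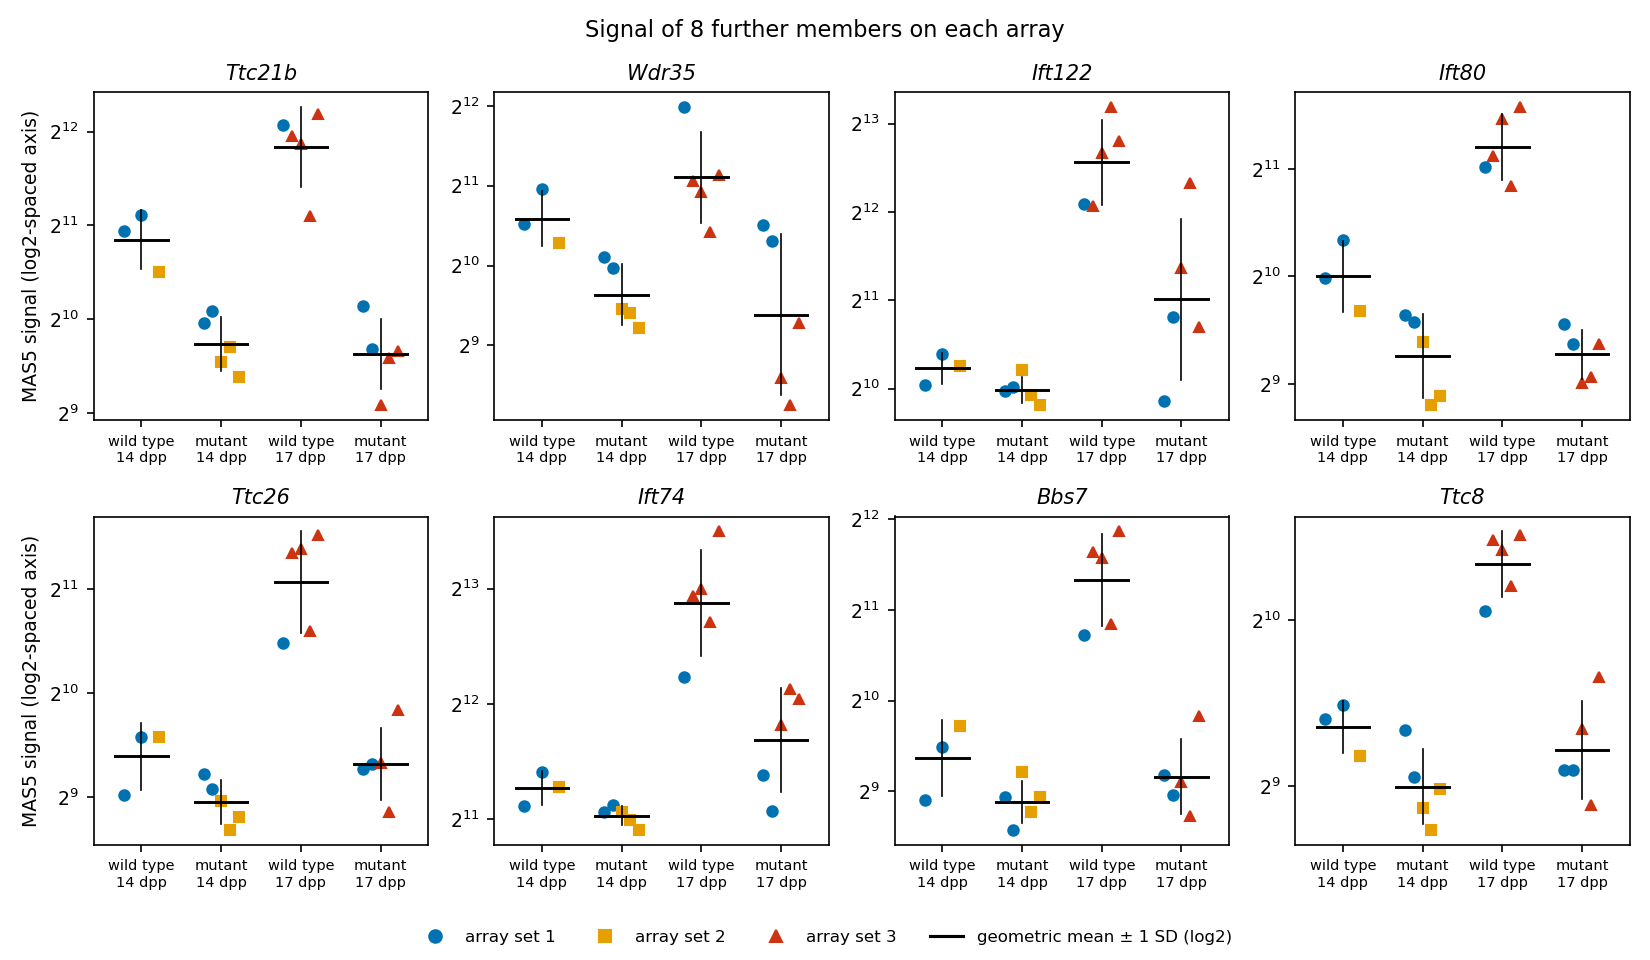
MAS5 signal of Ttc21b, Wdr35, Ift122, Ift80, Ttc26, Ift74, Bbs7 and Ttc8 on each array, on log2-spaced axes with their own range per gene, by group; symbols mark the array set, and bars give the geometric mean with 1 SD of the log2 values. At 17 dpp the mutant and wild-type arrays do not overlap for Ttc21b, Ift80, Ttc26, Ift74, Bbs7 and Ttc8, and they overlap for Wdr35 and Ift122.

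Every mutant array lay below every wild-type array at 17 dpp for 11 of the 37 members, where 3.31% of all tested probe sets did so. These were Bbs7, Bbs10, Cluap1, Ift74, Ift80, Kif3b, Ttc8, Ttc21b, Ttc26, Ttc30a1 and Ttc30a2. Within set 3 this held for 23 members, against 6.48% of probe sets. Within set 1, with its 2 mutant arrays and 1 wild-type array, it held for 36, against 26.5%. At 14 dpp it held for 11 members, against 3.08%, and 5 of them (Cluap1, Ift80, Ttc21b, Ttc30a1 and Ttc30a2) stand in the 17 dpp list as well.

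Members with several probe sets allow a look at the probe sets that the choice of the brightest left out. Such genes numbered 15, with 23 further probe sets, of which 22 were tested. At 17 dpp, 16 of the 22 had negative differences, against 35.7% of all probe sets. Of the 22, 2 were called lower (those of Ttc30a2 and Wdr35) and 0 higher, against 3.86% and 1.48% of all probe sets. With the block 4 were called lower, against 8.05%, and 0 higher. With the mean of all probe sets in place of the brightest, 12 members were called lower at 17 dpp. That fit tested gene means, so the shares of probe sets above do not apply to this count.

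At 14 dpp 1 member, Ttc30a2, was called lower and 0 higher, where 0.196% of all tested probe sets were called lower. At an unadjusted p under 0.05 there were 4 members lower and 0 higher, where 1.33% of all probe sets were lower. The differences were small but mostly of 1 sign: 34 of 37 were negative, with a median of −0.36 against 0.06 over all probe sets, of which 42.7% were negative. The 3 with a positive sign were Bbs12 (0.23), Ift57 (0.20) and Bbs4 (0.16). After Ttc30a2, the lowest values were those of Ttc21b (−1.11), Ttc30a1 (−1.05), Wdr35 (−0.95) and Ift22 (−0.86). With the array set as a block, 2 members were called lower (Ttc30a2 and Ttc30a1), against 0.357% of probe sets. Ttc30a2 was not called within set 2 (adjusted p = 0.762), which holds 1 wild-type array, with the replicate number as a block (−2.85, adjusted p = 0.0656), or without wild-type replicate 2 (−2.44, adjusted p = 0.0598).

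**Figure D3:**
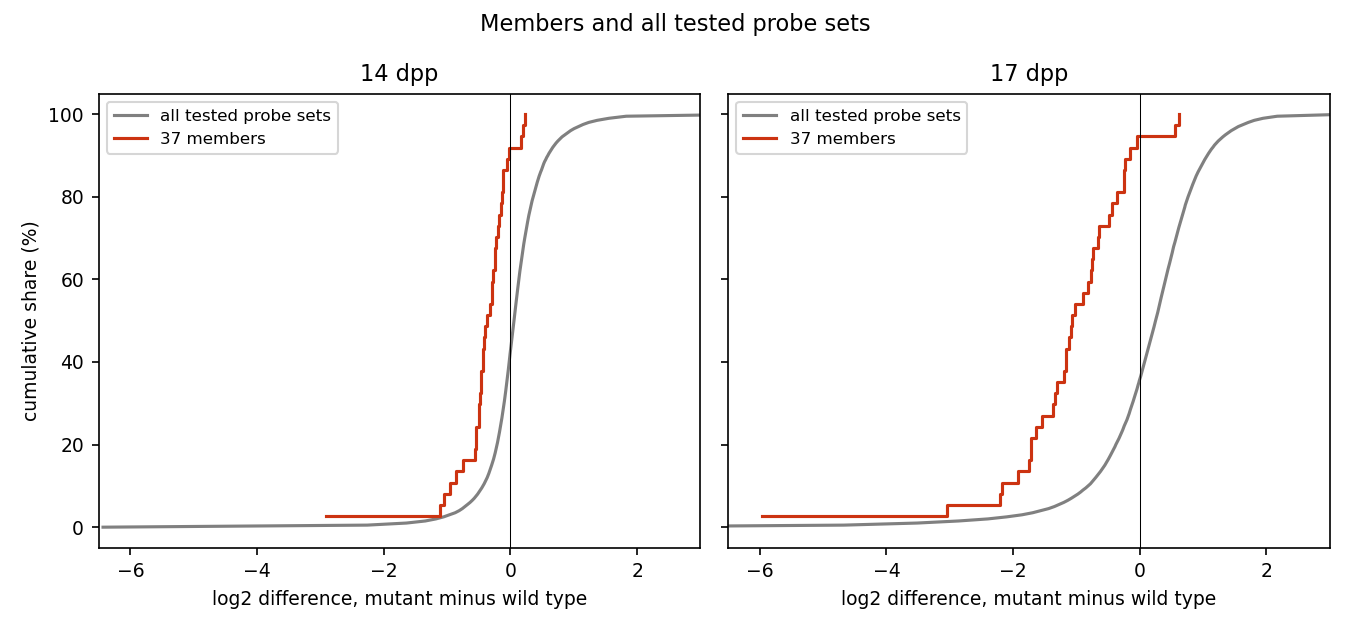
Cumulative share of the 37 members (red) and of all 34764 tested probe sets (grey) by log2 difference, mutant minus wild type, at 14 dpp (left) and 17 dpp (right). The red curve lies to the left of the grey one at both ages, with medians of −0.36 against 0.06 and of −1.07 against 0.25.

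The interaction compares the genotype difference at 17 dpp with that at 14 dpp. It was negative for 32 members, with a median of −0.70 against 0.16 over all probe sets. It was called for 1 member, Ttc30a2, at −3.04 ± 0.57 (adjusted p = 0.0323, limma), where 0.204% of probe sets were called lower and 0 members were called higher. Its mutant signals of 14 dpp lay below the 40th percentile, so that the size of this interaction is not exact, and with such signals raised to the percentile it was −3.55 (adjusted p = 0.00173, limma). At an unadjusted p under 0.05 there were 11 members, all negative, where 3.45% of all probe sets were negative at that p. With the array set as a block 7 members were called lower, against 1.13% of probe sets. These were Ttc30a2 (−3.13), Ttc30a1 (−1.84), Bbs7 (−1.52), Ift80 (−1.35), Ift140 (−1.33), Ttc21b (−1.31) and Ift27 (−1.29). The call of Ttc30a2 was lost under 17 of the 30 other settings run for it. These included arrays at a common median (−3.14, adjusted p = 0.0613), quantile normalization (−2.74, adjusted p = 0.0788), the replicate number as a block (−3.11, adjusted p = 0.0801), the arrays without those of set 3 (−3.26, adjusted p = 0.0532) and set 1 alone (−2.82, adjusted p = 0.343). It was also lost on leaving out any 1 of 12 arrays (−3.11 to −2.55, adjusted p of 0.0547 to 0.135), namely each mutant array of 14 dpp, wild-type replicates 1 and 3 of 14 dpp, mutant replicates 1 and 2 of 17 dpp, and wild-type replicates 2, 3 and 5 of 17 dpp. Without wild-type replicate 1 of 17 dpp 2 members were called.

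Between 14 and 17 dpp many members rose in wild type. In the fit without the block 11 were called higher, where 4.86% of probe sets were, and 1 (Bbs9) lower, where 16.5% were. The 11 were Ttc30a2 (3.90), Ttc30a1 (2.53), Ift122 (2.33), Ift57 (2.01), Bbs7 (1.96), Ttc26 (1.68), Ift74 (1.61), Ift80 (1.20), Kifap3 (1.02), Ttc21b (0.99) and Ttc8 (0.98). Age is largely confounded with the array set, since only set 1 holds both ages. With the set as a block 15 members were called higher, against 3.06% of probe sets, and 0 lower, against 1589 of 34764 probe sets. At an unadjusted p under 0.05 there were 27 members higher and 0 lower, where 7.05% of all probe sets were higher and 15.5% lower. The differences were then positive for 35 members, with a median of 1.10 against −0.30 over all probe sets. Bbs9 turned from −2.29 ± 0.78 to 0.11 ± 0.45, and Kifap3 and Ttc8 were no longer called. Ttc30a1 stood at 1.29, Ift122 at 1.61, Ift57 at 1.16 and Ift74 at 0.96 with the block, each over 1.5-fold below its value without it. With the mean of all probe sets of a gene in place of the brightest, 9 members were called higher, and the calls of Ift122 (0.31, adjusted p = 0.654), Ift57 (0.98, adjusted p = 0.2) and Ttc21b (0.41, adjusted p = 0.263) were lost. The features of that fit were gene means, so the share of probe sets does not apply to it. The weaker probe set of Ift122 had geometric mean signals of 386 at 14 dpp and 117 at 17 dpp in wild type. Without the block, single arrays decided 5 of these calls. Ift80 was not called without wild-type replicate 3 of 14 dpp (1.04, adjusted p = 0.0574), nor Ttc8 without replicate 1 or 3 of that age (at least 0.89, adjusted p of 0.0543 to 0.0626). Ttc21b was not called without these or without replicate 5 of 17 dpp (0.81 to 1.03, adjusted p of 0.0612 to 0.113). Kifap3 was lost without any 1 of the 14 dpp arrays or replicate 2, 3 or 5 of 17 dpp (0.91 to 1.09, adjusted p of 0.0637 to 0.112), and Bbs9 without any 1 array other than replicate 1 of 17 dpp (−2.39 to −1.88, adjusted p of 0.0777 to 0.127). Without wild-type replicate 3 of 14 dpp 7 members were called higher.

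Within set 1 (2 wild-type arrays of 14 dpp and 1 of 17 dpp) 3 members were called higher, against 1.22% of probe sets. They were Ttc30a2 (3.33), Ift27 (2.02) and Ift140 (adjusted p = 0.0177, limma). The differences there were positive for 35 of 37 members, with a median of 0.97 against −0.29 over all probe sets. With 1 wild-type array of 17 dpp in that set, the array is assumed to vary like the others.

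In mutants 0 members were called in either direction between 14 and 17 dpp in the fit without the block, where 0.423% of probe sets were called higher and 1.5% lower, and 9 members had an unadjusted p under 0.05, 6 of them negative. Of all probe sets 29.5% had such a p. Without mutant replicate 1 of 17 dpp 2 members were called higher and 4 lower, and without replicate 2, 1 and 2. The shares of all probe sets in these fits are not given here. With the block the count was again 0 in either direction (0.141% of probe sets were called higher), and 2 had an unadjusted p under 0.05, against 10.5% of all probe sets. The median over members was then 0.12 against −0.10 over all probe sets. The highest value was that of Ift27 (0.75 ± 0.22, adjusted p = 0.126) and the lowest that of Ttc30b (−0.56 ± 0.29). Ttc30a2 stood at 3.44 ± 0.50 in wild type and 0.31 ± 0.46 in mutants with the block. The difference between these age effects is the interaction, which was −3.13 for Ttc30a2 with the block.

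**Figure D4:**
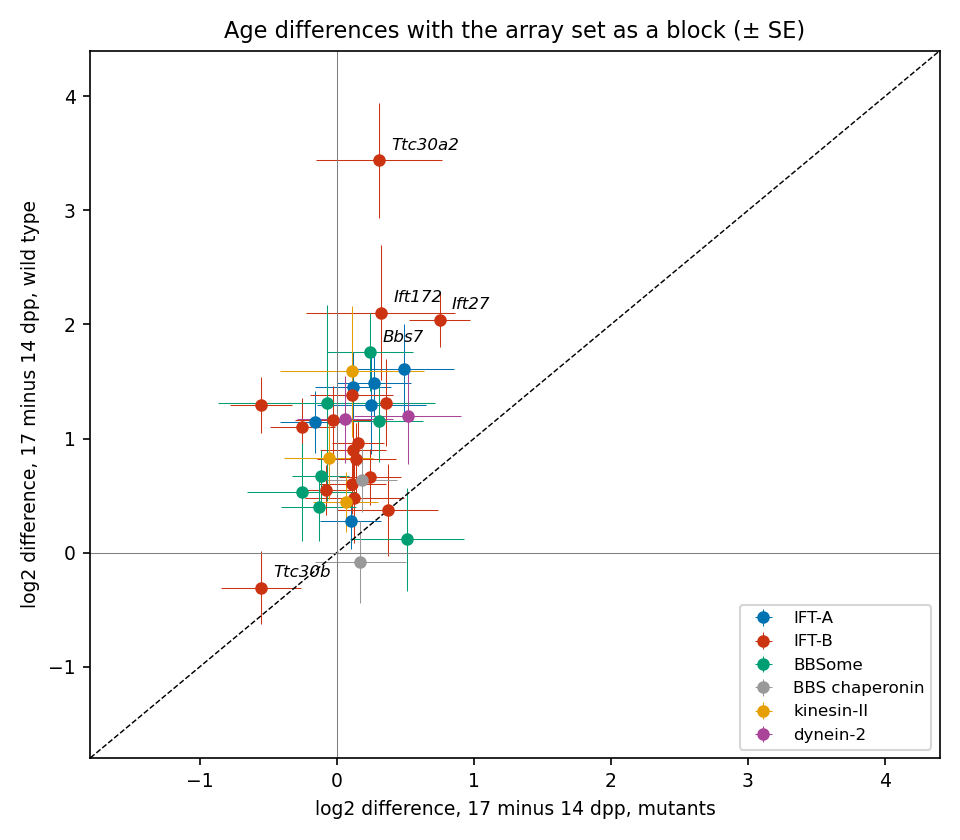
Log2 difference of signal, 17 minus 14 dpp, in wild type (vertical) against mutants (horizontal) for the 37 members, with the block for the array set and standard errors as bars; colours mark the role and the dashed line marks equal values. Wild-type values run up to 3.44 (Ttc30a2), with 35 of 37 above 0, while mutant values stay between −0.56 and 0.75.

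Array sets moved with the level of many members at 17 dpp. Between set 3 and set 1, the median member differed by −0.97 in mutants and −0.49 in wild type, against −0.10 and −0.16 over all probe sets. The range ran from −3.75 (Ift172) to 1.20 (Ttc30a1) in mutants and from −4.04 to 1.57 in the wild type, for the same genes. A difference below −1 was found for 18 members in mutants and 17 in wild type. The wild-type side rests on 1 array of set 1. Ttc30a2 differed little (0.50 and 0.11).

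Genes that work with the machinery but fall outside the member rule were measured too. Of 18 tested genes for further IFT, BBSome, dynein-2 and small GTPase proteins, 4 were called lower and 1 higher at 17 dpp. Of all probe sets 3.86% were called lower and 1.48% higher. The median of the 18 genes was −0.13, against 0.25 over all probe sets. With the array set as a block 6 were called lower and 2 higher, where 8.05% and 10.8% of all probe sets were. Their median was then 0.09, against 0.24 over all probe sets. The lowest was Dynlrb2, a dynein light chain gene of the roadblock family, with geometric mean signals of 3040.4 in wild type and 84.4 in mutants (−5.17 ± 0.42, adjusted p = 2.37e-07, limma). It was also called at 14 dpp (−2.88, adjusted p = 0.00784, limma), where 4 of the 5 mutant signals lay below the 40th percentile of their arrays. With those raised to it the wild type was 4.97-fold brighter or more. The dynein-2 light chain gene Tctex1d2 (−2.06), the BBSome regulator Lztfl1 (−1.29) and the small GTPase gene Arl3 (−1.13) were the others called lower, and Ccdc28b (0.96) was higher. Of 15 tested genes of the transition zone, the gate at the base of the cilium, 0 were called without the block. At an unadjusted p under 0.05 there were 2 lower and 1 higher, where 7.32% of all probe sets were lower and 12% higher. With the block 5 were called lower and 1 higher, against 8.05% and 10.8% of all probe sets.

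Transcription factors of cilium genes were measured on the same arrays. Rfx4 had geometric mean signals of 1357 in wild type and 25.6 in mutants at 17 dpp (−5.73 ± 0.54, adjusted p = 1.39e-06, limma). The signal lay below the 40th percentile of the array on 4 of the 5 mutant arrays, and with these raised to it the wild type was at least 20.0-fold brighter (−4.32, adjusted p = 3.36e-09, limma). Rfx2 had 159 and 29.4 (−2.44 ± 0.68, adjusted p = 0.0436, limma). Its mutant signal was below the percentile on 3 of 5 arrays, and with these raised the difference was −0.98 and no longer called (adjusted p = 0.317). Rfx1 (0.76) and Rfx3 (0.48) were not called, although Rfx3 was called higher with the block (0.73, adjusted p = 0.0341, limma). Foxj1 did not pass the filter on low signal.

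Cell type markers moved with genotype as well. All 8 tested pachytene spermatocyte markers were called lower in mutants at 17 dpp, where 3.86% of all probe sets were. At 14 dpp 6 of them were, against 0.196%. The list was chosen with earlier results of these data known, so these counts are a description only. The medians of the 8 markers were −4.89 at 17 dpp and −2.81 at 14 dpp. These medians are imprecise, as many mutant signals lay at or below the percentile of the low-signal filter. At 14 dpp this held for all 5 of Adam2 and Pgk2 and 3 each of Ldhc and Piwil1. With such signals raised to it, Adam2 went from −5.74 to −3.58 and Pgk2 from −2.46 to 0.10. At 17 dpp it held for all 5 of Pgk2 (−5.66, raised −3.24) and 3 of Adam2 (−7.72, raised −7.24). Clgn, Hspa2 and Mael had 0 such signals. The markers' summed signal at 17 dpp was 62249.7 to 119112 in wild type against 5160.4 to 8442 in mutants. At 14 dpp it was 16214 to 21748 against 6333 to 7106. The medians of spermatogonial (0.96), Sertoli (0.71), Leydig (1.004), peritubular myoid (0.63), macrophage (0.90) and endothelial (0.44) markers were positive at 17 dpp. The median over all probe sets was positive too, at 0.25. Of these marker genes only the macrophage gene Csf1r was called without the block (higher), where 1.48% of all probe sets were called higher. With the block, 4 of 8 spermatogonial, 4 of 9 Sertoli, 1 of 5 myoid and 3 of 5 macrophage genes were called higher. Of all probe sets 10.8% were called higher in that fit. Summed spermatogonial signal was 8212 to 19078 in mutants and 3739 to 11559 in wild type, and summed Sertoli signal 34259.9 to 64437 and 24021 to 51834. Of 6 tested round spermatid markers Acr alone was called (lower), and their median was −0.15. Of 4 tested markers of multiciliated cells and epididymis Cdhr4 alone was called (lower). Which part of the members' differences goes with these markers was not tested.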

How the data were processed

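Total RNA of whole testes was labelled with biotin and hybridised to Affymetrix mouse 430 2.0 arrays, and GCOS software made values from the scans, per the labels' design text. The submitters' processing notes name MAS5, without a version. The authors deposited signal intensity on a linear scale, 1 value per probe set and array, with no normalization between arrays stated and none added here. MAS5 values of dim probe sets are noisy, so large folds against dim groups are imprecise, and precision is limited by how many arrays there are.

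Of 45101 probe sets 64 were controls, and 34764 of the rest were tested because 3 or more arrays had them above the 40th percentile. Gene names came from the platform annotation, and all 37 members matched the reference table (GRCm38.p6). A model with a mean for each group was fitted to the log2 signal of all 18 arrays (limma 3.58.1, R 4.3.3), with an intensity trend, two-sided tests, Benjamini-Hochberg adjustment over all tested probe sets and a threshold of 0.05 (14 residual degrees of freedom). Each ± is the standard error from limma. The script was tested on simulated data. Array sets were bounded at β-actin ratios of 1.9 and 10. The set was added as a term in the block fit (12 residual degrees of freedom). Values within a set came from means of each group in each set, with 1 common spread, and a lone array is taken to vary like the rest. No pair of arrays was identical.

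Members and lists were chosen with earlier results of these data known. Values in every sample are given for members called in a genotype contrast or the interaction and for the member with the highest mean of each role, and others are given by counts and ranges. Replicate numbers are shared by the groups: same-numbered arrays correlated in their deviations at 0.283 to 0.385 in the 3 pairs of 14 dpp, and other mutant and wild-type arrays of the same set at 0.288 to 0.384 there. At 17 dpp the 5 pairs gave −0.227 to 0.777. The pairing of 14 dpp thus stands within the array sets, no source says that a number marks a shared litter or day, and the replicate block is an alternative. The other alternatives were scaling, filters, an added offset of 32, all probe sets of a gene, signals raised to the 40th percentile of the array (chosen after seeing the data), array weights, subsets of arrays and leaving out each array.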

Additional observations from a re-analysis of the deposited data

Results flagged for a closer look

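Ttc21b had a signal of 2200 on wild-type replicate 4 of 17 dpp, while its group's next lowest signal was 3747. It was the only 1 of 51 pairs of a gene and a group in which an end sample stood that far apart, and chance marks about 1 in 20 such pairs. The array belongs to set 3. Ttc21b was called lower in mutants at 17 dpp with and without it.

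The genotype difference of Ttc30a2 had an interaction with age of −3.04 on the log2 scale (adjusted p = 0.0323, limma), and this call was lost under 17 of the 30 alternatives run for it. All 5 mutant signals of 14 dpp lay below the 40th percentile of their arrays, so that the 14 dpp difference is a bound and the size of the interaction is not exact.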

How the results depend on the processing

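Ttc30a2, Ttc30a1, Ttc21b and Ift80 were called lower at 17 dpp under each of the 24 settings run for them, and 0 members were called higher at 14 or 17 dpp or in the interaction under any. Members called lower at 14 dpp (1 in the fit reported) numbered 2 with the array set as a block, 0 within set 2, 3 without the set 3 arrays, 2 after quantile normalization, 13 with array weights (which also called 1948 of all probe sets lower and 3409 higher), 2 with only 14 dpp arrays and 0 to 1 on leaving out single arrays. At 17 dpp (14) they numbered 31 with the block, 8 within set 1, 25 within set 3, 7 with only 17 dpp arrays and 11 to 16 without single arrays. In the interaction (1) they numbered 7 with the block, 0 within set 1, at a common median and after quantile normalization, 2 without set 3, 5 with weights and 0 to 2 without single arrays. With age in wild type, 11 were called higher, against 3 within set 1, 19 without set 3 and 7 to 12 without single arrays. The 1 called lower (Bbs9) became 0 with the block, within set 1, without set 3, at a common median, after quantile normalization and with no filter, 9 with weights and 0 to 2 without single arrays. With age in mutants (0 in either direction), 2 were higher without set 3, 2 at a common median, 3 with weights and 0 to 2 without single arrays, and 1 was lower with the mean of probe sets, 12 with weights and 0 to 4 without single arrays. The age difference of Bbs9 in wild type reversed to 0.11 with the block, 0.43 within set 1 and 0.35 without set 3. The replicate block gave 0 members lower at 14 dpp (Ttc30a2 at −2.85, adjusted p = 0.0656, limma), 22 lower at 17 dpp, 0 in the interaction, 12 higher and 0 lower with age in wild type, and 1 higher and 0 lower with age in mutants. The causes were not tested. Where no share stands beside a count of members under an alternative setting, that count was not compared with all tested features. Of the other values of named members, 307 kept direction and side of the threshold and 56 only direction, and 216 and 46 when single arrays were left out. Raising signals to the 40th percentile of the array, chosen after seeing the data, kept each count of members within 1.5 times. Signal over background limits Ttc30a2 in mutants.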
